A study of Mus musculus with 8 samples.

Results

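The 10 genes described here are the immediate early transcription factors Fos, Fosb, Jun, Junb, Jund, Atf3, Egr1 and Egr2, with the companion early response genes Ier2 and Dusp1. They were taken by gene symbol from the Ensembl identifiers of 54446 gene rows, of which 21197 had a count in at least 1 library, and all 10 passed the filter on low counts. RNA of sorted mouse eosinophils from an asthma model study of lung eosinophils was read by CEL-Seq, a method that copies and counts the 3' ends of transcripts, in 8 libraries. The SiglecFhi/CD101+ eosinophils (n = 2) and the Siglec-Fint/CD101- eosinophils (n = 2) are subsets named for 2 surface proteins, Siglec-F and CD101, and the resident eosinophils (n = 4, numbered 3 to 6) are the set that both were compared with. All mice were C57BL/6; the labels give no treatment, time, age, sex, tissue of each sample or number of animals, so treatment and group cannot be told apart. The deposited tables head the resident libraries with the letter N, the Siglec-Fint/CD101- libraries with R and the SiglecFhi/CD101+ libraries with I. The labels explain none of these letters, and R could be read as resident; groups follow the sample titles, and every direction below rests on them. The labels do not tie the libraries of a group to different animals, so every p-value rests on the spread among these libraries alone, which may be technical.

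Immediate early genes are transcribed within minutes of a stimulus, without new protein synthesis, and their short-lived transcripts soon decay. Fos and Jun proteins pair through leucine zippers into the dimer AP-1, ATF3 is a related zipper protein that often represses, and EGR1 and EGR2 are zinc finger factors that bind GC-rich sites. MAP kinases switch these genes on through the serum response factor, SRF, which binds CArG boxes, and through CREB, which binds the cyclic AMP response element, CRE. In granulocytes they respond to cytokines, adhesion and stress, and enzymatic digestion of tissue is also known to induce them; the labels do not say how the cells were prepared.

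Promoters of 8 of the 10 genes were read from RefSeq on GRCm38.p6, as windows of 250 bases before to 50 bases after a transcription start; Egr1 and Ier2 are not shown. The windows of Egr2 (chr10:67537619-67537918, plus strand), Junb (chr8:84978699-84978998, minus strand), Atf3 (chr1:191183284-191183583, minus strand) and Fosb (chr7:19309996-19310295, minus strand) are printed because these 4 genes had an unadjusted p under 0.05 in at least 1 comparison. Capitals mark the CRE core (TGACG, or CGTCA on the other strand) and the CArG box (CC, 6 bases of A or T, GG).
Egr2: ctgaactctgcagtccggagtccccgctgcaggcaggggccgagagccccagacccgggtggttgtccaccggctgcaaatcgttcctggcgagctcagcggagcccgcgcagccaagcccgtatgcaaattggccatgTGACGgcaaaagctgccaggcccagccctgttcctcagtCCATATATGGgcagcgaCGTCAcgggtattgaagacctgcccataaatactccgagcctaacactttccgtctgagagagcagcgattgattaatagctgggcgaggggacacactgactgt
Junb: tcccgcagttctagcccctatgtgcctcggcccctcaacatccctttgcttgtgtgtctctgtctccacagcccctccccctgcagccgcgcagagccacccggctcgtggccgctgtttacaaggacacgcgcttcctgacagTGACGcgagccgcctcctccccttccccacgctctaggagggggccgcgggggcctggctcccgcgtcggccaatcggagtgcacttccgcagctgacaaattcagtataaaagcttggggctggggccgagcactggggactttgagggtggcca
Atf3: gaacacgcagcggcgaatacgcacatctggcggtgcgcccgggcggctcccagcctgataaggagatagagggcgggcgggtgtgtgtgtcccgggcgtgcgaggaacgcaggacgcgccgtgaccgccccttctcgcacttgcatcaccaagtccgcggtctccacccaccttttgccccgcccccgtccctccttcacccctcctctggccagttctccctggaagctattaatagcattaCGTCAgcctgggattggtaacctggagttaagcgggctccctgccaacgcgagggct
Fosb: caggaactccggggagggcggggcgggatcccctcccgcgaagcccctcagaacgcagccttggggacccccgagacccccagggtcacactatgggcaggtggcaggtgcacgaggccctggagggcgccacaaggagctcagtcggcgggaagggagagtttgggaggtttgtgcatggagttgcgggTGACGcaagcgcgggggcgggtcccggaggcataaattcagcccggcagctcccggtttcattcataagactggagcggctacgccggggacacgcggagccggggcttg
RefSeq lists 5 starts for Egr2, and the window shown is the first of 3 overlapping ones that hold both motifs: a CRE core at -111 to -107, a CArG box at -72 to -63 and a further CRE core at -55 to -51 from the start. Single CRE cores lay at -106 to -102 in Junb, at -7 to -3 in Atf3 and at -60 to -56 in Fosb. Fos had cores at -129 to -125 and -66 to -62, and Dusp1 held the full CRE, TGACGTCA, at -143 to -136 with a separate core at -191 to -187. The letters of a TATA box (TATAAA) lay at -33 to -28 in Fos and at 1 to 6 in Junb. The start used for the Junb window lies upstream of the annotated start of the gene at 84978718, and so does this match. The windows of Jun and Jund held none of these motifs, and no window held an AP-1 site (TGANTCA) or an EGR site (GCGTGGGCG). The Jund window, chr8:70697489-70697788, ends before the annotated start of the gene at 70698949. The windows of Atf3 and of Dusp1 (chr17:26508423-26508722) lie inside their genes, away from the annotated starts at 191218039 and 26562128. The bases beside these starts were not searched. The Egr2 window shown also lies inside its gene, past the annotated start at 67535475. Among 27025 promoter windows, 1 for each gene read, 21% held a CRE core, of which the CRE is an extension, and 1.88% a full CRE. A CArG box was held by 1.57%, a TATA box by 14.2%, an AP-1 site by 7.93% and an EGR site by 0.625%, with both strands searched. For the 8 genes every window was read, 5 of them for Egr2, so their matches are not like for like with these shares. The Egr2 window at chr10:67535249-67535548 held none of these motifs. A match describes the letters only.

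Total counts were 3109428 and 1513517 in the SiglecFhi/CD101+ libraries, 1517159 and 2990294 in the Siglec-Fint/CD101- libraries, against 5600610 to 11583550 in the resident libraries. The mitochondrial genome took 82.2% and 70.6% of the counts in the SiglecFhi/CD101+ libraries and 69.9% and 83.9% in the Siglec-Fint/CD101- libraries, against 38.6% to 61.8% in the resident ones. A count of 3, used as the floor of a library, equals 1.59 to 2.18 CPM (counts per 1000000, on library sizes scaled by the trimmed mean of M-values, TMM) in the subset libraries and 0.199 to 0.501 CPM in the resident ones. Counts were found for 11 of 12 eosinophil markers matched, and their sum was 148 to 454 CPM in SiglecFhi/CD101+ and 168 to 296 CPM in Siglec-Fint/CD101- libraries, against 184 to 438 CPM in resident ones. Prg2, the eosinophil major basic protein, had 38.7 and 235 CPM in SiglecFhi/CD101+ and 0.727 and 1.86 CPM in Siglec-Fint/CD101- libraries, against 4.95 to 15.9 CPM in resident libraries. Epx, the eosinophil peroxidase, and Il5ra, the interleukin-5 receptor chain, had no count in any of the 4 subset libraries, and Prg3 had none in any library. Resident libraries held few as well: Epx had 25 counts, all in replicate 5, and Il5ra had 1 in replicate 3, 57 in replicate 6 and none in the others. Siglecf, which encodes Siglec-F, had 10.1 and 26.8 CPM in the SiglecFhi/CD101+ libraries and no count in either Siglec-Fint/CD101- library, against 4.28 to 43.9 CPM in resident libraries. The values below therefore belong to the libraries so labelled. In bulk RNA, fewer cells of a type and less RNA per cell cannot be told apart.

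Fos (chr12:85473890-85477273, plus strand), the AP-1 subunit that binds DNA only beside a Jun protein, had 139 and 62.8 CPM in the SiglecFhi/CD101+ libraries. It had 64.7 and 55.9 CPM in the Siglec-Fint/CD101- libraries, against 88.2, 124, 78.4 and 147 CPM in resident libraries 3 to 6. Both Siglec-Fint/CD101- libraries lay below every resident one, whereas the SiglecFhi/CD101+ libraries lay inside and below the resident range. Fosb (chr7:19302696-19310051, minus strand), a close relative whose short splice form is stable, had 24.4 and 119.5 CPM in SiglecFhi/CD101+ libraries, 93.1 and 34.1 CPM in Siglec-Fint/CD101- libraries, against 115, 285, 108 and 216 CPM in resident libraries. Its Siglec-Fint/CD101- values were below all 4 resident values, and the SiglecFhi/CD101+ libraries differed from each other by 2.28 on the log2 scale. The log2 fold change of Fosb was -1.33 ± 0.76 (SE) for SiglecFhi/CD101+ against resident (edgeR adjusted p = 0.366) and -1.51 ± 0.77 for Siglec-Fint/CD101- against resident (edgeR adjusted p = 0.335). The first of these was -0.69 without SiglecFhi/CD101+ replicate 1 and -2.99 without replicate 2, and the second was -2.47 without Siglec-Fint/CD101- replicate 1 and -0.98 without replicate 2.

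Jun (chr4:95049034-95052222, minus strand), the founding Jun protein, had 202 and 124 CPM in SiglecFhi/CD101+ libraries, 249 and 300.5 CPM in Siglec-Fint/CD101- libraries, against 204, 297, 242 and 327 CPM in resident libraries. The SiglecFhi/CD101+ libraries were thus below the other 6, although the higher of them almost met the lowest resident value. Junb (chr8:84974484-84978718, minus strand), a Jun protein that activates less strongly than Jun, had 191 and 194 CPM in SiglecFhi/CD101+ libraries. It had 300.3 and 304 CPM in Siglec-Fint/CD101- libraries, against 379.9, 609.8, 269 and 534 CPM in resident libraries. With TMM scaling both SiglecFhi/CD101+ values were below the other 6 libraries, and the 2 libraries of each subset lay within 0.019 of each other on the log2 scale. That was the closest agreement of the 9 genes detected in both subsets, but it depended on the scaling. On library totals alone, Junb had 116 and 210 CPM in SiglecFhi/CD101+ and 272 and 164 CPM in Siglec-Fint/CD101- libraries. For SiglecFhi/CD101+ against resident, Junb had a log2 fold change of -1.22 ± 0.46 (unadjusted p = 0.0178, edgeR adjusted p = 0.236); for Siglec-Fint/CD101- against resident it was -0.57 ± 0.44 (edgeR adjusted p = 0.499). Jund (chr8:70698949-70700616, plus strand), the Jun protein that many resting cells keep at a steady level, had 139 and 246 CPM in SiglecFhi/CD101+ libraries, 559.8 and 172 CPM in Siglec-Fint/CD101- libraries, against 316, 424, 217 and 274 CPM in resident libraries. Its 3 groups overlapped, with the highest and a low value both among the Siglec-Fint/CD101- libraries.

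Atf3 (chr1:191170296-191218039, minus strand), the stress-induced factor that restrains inflammatory genes in macrophages, had 203 and 263 CPM in SiglecFhi/CD101+ libraries. It had 126 and 185 CPM in Siglec-Fint/CD101- libraries, against 433, 616, 209 and 422 CPM in resident libraries. The Siglec-Fint/CD101- libraries were the lowest of all 8, and the SiglecFhi/CD101+ libraries met the lowest resident library, number 5. The log2 fold change of Atf3 was -0.85 ± 0.49 for SiglecFhi/CD101+ against resident (edgeR adjusted p = 0.372) and -1.43 ± 0.51 for Siglec-Fint/CD101- against resident (unadjusted p = 0.0129, edgeR adjusted p = 0.288). Between the subsets it was 0.58 ± 0.55 (edgeR adjusted p = 0.604), with both SiglecFhi/CD101+ libraries above both Siglec-Fint/CD101- libraries.

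Egr2 (chr10:67535475-67542188, plus strand), a zinc finger factor known for setting myelin and lymphocyte programmes, was the one gene of the 10 without a count in a group. It had 0 counts in both SiglecFhi/CD101+ libraries and 104 and 32 counts (75.6 and 19.9 CPM) in the Siglec-Fint/CD101- libraries. Resident libraries had 55, 159, 42 and 320 counts, which are 9.19, 12.5, 2.94 and 21.3 CPM. The SiglecFhi/CD101+ libraries were therefore below all others, and 1 Siglec-Fint/CD101- library was above every resident one while the other lay inside the resident range. Set against 3 counts over both SiglecFhi/CD101+ libraries, Egr2 pooled over resident libraries was 14.1-fold higher, and pooled over Siglec-Fint/CD101- libraries 53.5-fold higher. These limits cover counting error alone and leave out the spread among libraries, so they do not bound the level in the group. Within a subset a gene could fall from many counts to 0, as Map2k1 did with 166 and 0 in the Siglec-Fint/CD101- libraries. With 1 library left out, the first limit was 9.13 without resident replicate 6, and the second was 23.4 without Siglec-Fint/CD101- replicate 1 and 88.9 without its replicate 2. Without SiglecFhi/CD101+ replicate 1 or 2 the limits were 6.56 or 7.54 against resident and 24.9 or 28.6 against Siglec-Fint/CD101-. At the lowest resident level, 2.94 CPM, the SiglecFhi/CD101+ libraries would have held 5.55 and 4.83 counts; the floor of 3 counts is 1.59 and 1.83 CPM in these libraries and 0.851 CPM over both. Of the 11828 genes tested, 1943 (16.4%) had no count in both SiglecFhi/CD101+ libraries, and 228 (1.93%) combined this with counts in all of the other 6 libraries.

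For Egr2 in SiglecFhi/CD101+ against resident libraries the unadjusted p was 0.00399 and the edgeR adjusted p was 0.172; against Siglec-Fint/CD101- libraries they were 0.0011 and 0.178. DESeq2 gave adjusted p = 0.0119 and 0.00049 for these comparisons, in which it called 7.95% and 11.1% of all genes. In the other alternatives run for these comparisons, all edgeR or limma-voom fits, the adjusted p of Egr2 was 0.056 to 1 and did not pass 0.05. For Siglec-Fint/CD101- against resident the log2 fold change was 2.05 ± 1.20 (edgeR adjusted p = 0.378), and it was 0.73 without Siglec-Fint/CD101- replicate 1 and 2.69 without replicate 2. Summed markers of macrophages, dendritic cells, and mast cells and basophils were lowest in the SiglecFhi/CD101+ libraries, where Egr2 had no count. Other lists did not follow, such as epithelial markers at 4211 to 4551 CPM there, against 732 to 11256 CPM in resident libraries. Single markers also departed from their sums. C1qa, a macrophage marker, had 47.2 and 6.10 CPM in SiglecFhi/CD101+ libraries, against 8.62 to 34.0 CPM in resident ones. Flt3, a dendritic cell marker, had no count in Siglec-Fint/CD101- replicate 1. The summed macrophage markers (11 of 12 listed genes had a count, none of them at 0 in a whole group) came to 171 to 215 CPM in SiglecFhi/CD101+, 280 to 716 CPM in Siglec-Fint/CD101- libraries, against 287 to 813 CPM in resident ones. Dendritic cell markers (10 of 11 with a count, Irf8 at 0 throughout) summed to 86.0 to 139 CPM in SiglecFhi/CD101+, 176 to 301 CPM in Siglec-Fint/CD101- libraries, against 147 to 241 CPM in resident ones. Mast cell and basophil markers (5 of 8 with a count) summed to 0.61 to 1.06 CPM in SiglecFhi/CD101+, 16 to 29.2 CPM in Siglec-Fint/CD101- libraries, against 21.1 to 78.2 CPM in resident ones, with Mcpt8, Fcer1a and Ms4a2 at 0 in both subsets. Their part in the result was not tested.

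Egr1, the zinc finger factor of the same family that many mitogens induce, had 79.0 and 157 CPM in SiglecFhi/CD101+ libraries, 177 and 44.1 CPM in Siglec-Fint/CD101- libraries, against 118, 214, 122 and 70.8 CPM in resident libraries. Its groups overlapped in every comparison, and the Siglec-Fint/CD101- libraries differed from each other by 2.00 on the log2 scale. Ier2 (chr8:84661331-84662852, minus strand), an early response protein of the nucleus, had 81.6 and 106 CPM in SiglecFhi/CD101+ libraries, 127 and 50.3 CPM in Siglec-Fint/CD101- libraries, against 69.9, 141, 137 and 115 CPM in resident libraries. Its 3 groups overlapped as well. Dusp1 (chr17:26505590-26562128, minus strand), the phosphatase that shuts off the p38 and JNK MAP kinases, had 4.24 and 67.1 CPM in SiglecFhi/CD101+ libraries, from 8 and 110 counts. It had 54.5 and 72.0 CPM in Siglec-Fint/CD101- libraries, against 105, 106, 64.1 and 101 CPM in resident libraries. SiglecFhi/CD101+ replicate 1 stood apart from the other 7 libraries. The log2 fold change of Dusp1 for SiglecFhi/CD101+ against resident was -1.40 ± 0.91 (edgeR adjusted p = 0.426), and it was -0.57 without replicate 1 and -4.56 without replicate 2.

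**Figure D1:**
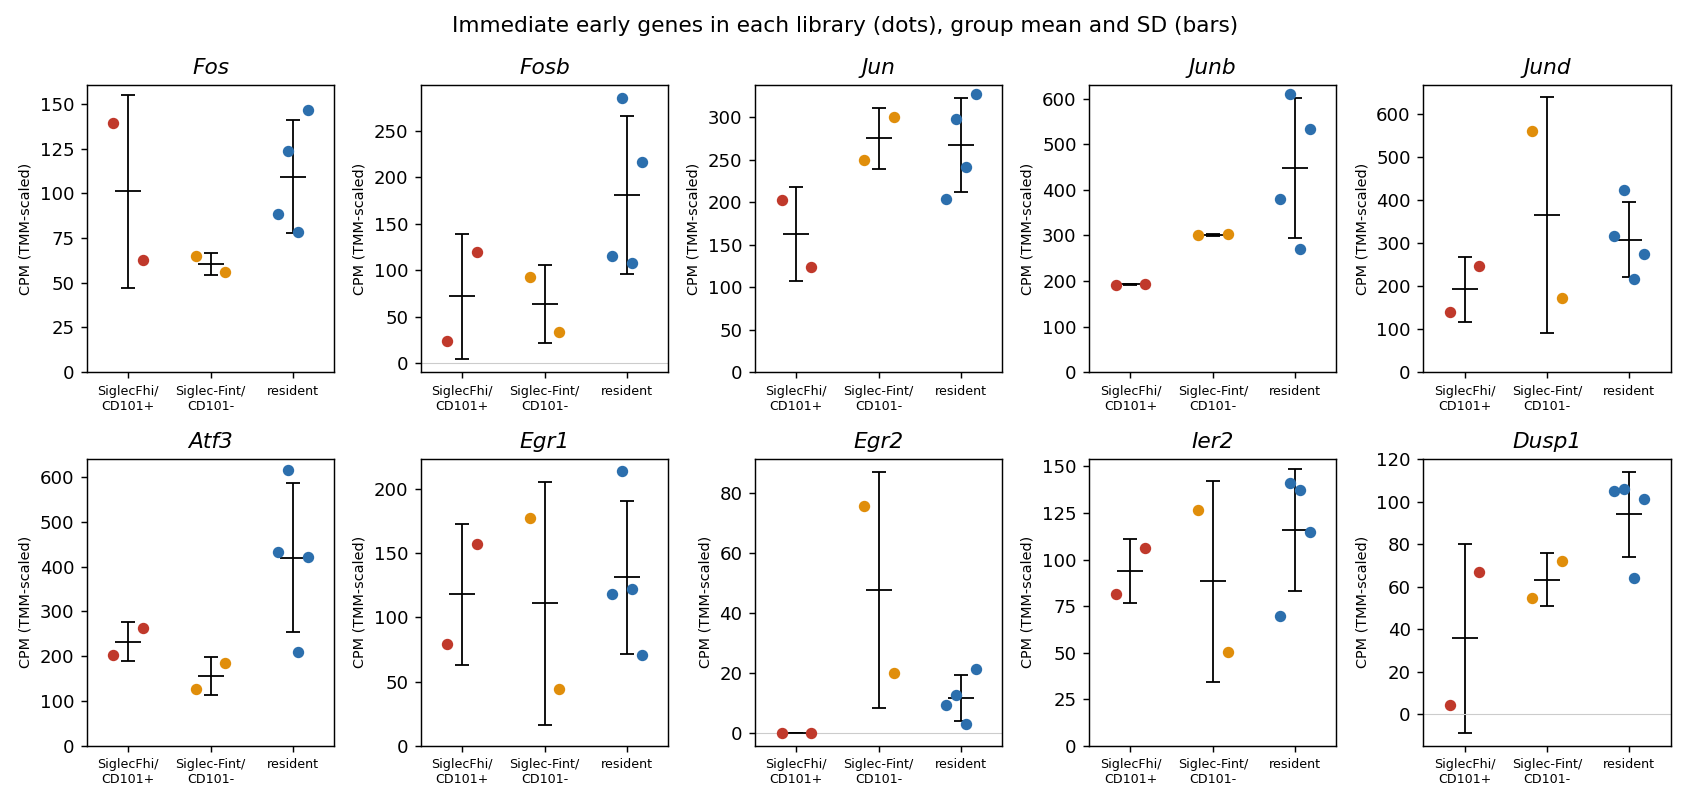
Level of each of the 10 genes in CPM on TMM-scaled library sizes (linear y axes), with a dot for each library and bars for the group mean and SD (SiglecFhi/CD101+ n = 2, Siglec-Fint/CD101- n = 2, resident n = 4). Egr2 is at 0 in both SiglecFhi/CD101+ libraries, Junb dots of each subset nearly coincide at 191 and 194 and at 300.3 and 304 CPM, and Dusp1 in SiglecFhi/CD101+ spans 4.24 to 67.1 CPM.

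In SiglecFhi/CD101+ against resident eosinophils, none of the 10 genes passed the threshold (edgeR quasi-likelihood test, Benjamini-Hochberg adjusted p under 0.05 over 11828 genes), where 0.0254% of all genes did. All 10 fold changes were negative with TMM scaling, with a median log2 fold change of -0.78 beside -0.72 over all genes tested, and 5 of the 10 lay above the median of all genes. The median of all genes was -3.15 without SiglecFhi/CD101+ replicate 1, with 9 of 10 above it, and -2.12 without replicate 2, with 7 above, and 3 lay above it without resident replicate 3, 5 or 6. With RLE scaling and DESeq2 the signs of Fos, Egr1 and Ier2 turned positive, and with upper-quartile scaling those of Fos and Egr1 did. At an unadjusted p under 0.05, Junb and Egr2 were lower, 2 of 10, beside 13.1% of all genes, and edgeR called 3 genes in all with all 8 libraries. That count was 1 without SiglecFhi/CD101+ replicate 1, 6 without replicate 2, 131 and 133 without Siglec-Fint/CD101- replicates 1 and 2, and 5 without resident replicate 5, each time with none of the 10 genes called. Both SiglecFhi/CD101+ libraries lay below all 4 resident libraries for Jun, Junb and Egr2, 3 of 10, and the same held for 27.4% of all genes. For Jun it no longer held as CPM over counts outside the mitochondrial genome. None of the 10 lay above all resident libraries, as 6.78% of all genes did.

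In Siglec-Fint/CD101- against resident eosinophils, 0 of 10 genes passed, beside 0.0592% of all genes. The median log2 fold change was -0.48, beside -1.0 over all genes, and 8 of the 10 lay above that median. The median of all genes was -3.29 without Siglec-Fint/CD101- replicate 1 and -4.42 without replicate 2, with 10 of 10 above it both times. Negative values were found for 7 genes and positive ones for Jun (0.04 ± 0.45), Jund (0.25 ± 0.51) and Egr2 with TMM scaling; on library totals alone Jun was at -0.90 and Jund at -0.40, and with RLE scaling Egr1 was at 0.13. Atf3 alone had an unadjusted p under 0.05, 1 of 10 beside 13.8% of all genes lower at that level. Fos, Fosb and Atf3 were below all 4 resident libraries in both Siglec-Fint/CD101- libraries, on either scale, and 29.3% of all genes had that pattern. None lay above all resident libraries on TMM-scaled CPM, as 4.46% of all genes did. Of all genes tested, 7 were called, but 0 without Siglec-Fint/CD101- replicate 1 and 1 to 3 without its replicate 2 or without any 1 resident library, with 0 of the 10 among them each time. This comparison and the one before share the 4 resident libraries.

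SiglecFhi/CD101+ against Siglec-Fint/CD101- eosinophils compares the subsets with each other, and 0 of 10 genes passed, beside 0.00845% of all genes. The median log2 fold change of the 10 was -0.28, beside 0.00 over all genes, with 5 above and 5 below. The median of the 10 was 0.016 without SiglecFhi/CD101+ replicate 1 and 0.20 without Siglec-Fint/CD101- replicate 1. It was -0.64 without SiglecFhi/CD101+ replicate 2 and -0.68 without Siglec-Fint/CD101- replicate 2, with 2 of 10 above the median of all genes each time. Jun (-0.76 ± 0.53), Junb (-0.65 ± 0.50) and Egr2 were lower in both SiglecFhi/CD101+ libraries than in either Siglec-Fint/CD101- library, 3 of 10 beside 11.9% of all genes. Atf3 was higher in both, 1 of 10 beside 15.8% of all genes. Egr2 alone had an unadjusted p under 0.05, where 7.96% of all genes were lower at that level. Fos had a log2 fold change of 0.75 ± 0.73, which was 0.0022 without SiglecFhi/CD101+ replicate 1. Jund was at -0.93 ± 0.60, and at 0.12 without Siglec-Fint/CD101- replicate 1. The 1 gene called over the whole table was no longer called without SiglecFhi/CD101+ replicate 2 or without either Siglec-Fint/CD101- library, and 2 were called without SiglecFhi/CD101+ replicate 1.

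Set together against the resident libraries, with the mean of the 2 subset means, the subsets gave 4 genes with an unadjusted p under 0.05, all lower, beside 21% of all genes lower at that level. That count was 0 with RLE scaling, DESeq2 or limma-voom and 1 with upper-quartile scaling. It was 0 without resident replicate 4, 1 without resident replicate 6, and 2 without SiglecFhi/CD101+ replicate 1 or Siglec-Fint/CD101- replicate 2. Atf3 had a log2 fold change of -1.14 ± 0.39 (edgeR adjusted p = 0.135), Junb of -0.89 ± 0.36 (edgeR adjusted p = 0.167) and Fosb of -1.42 ± 0.59 (edgeR adjusted p = 0.177). The fourth, Egr2, had -3.62 ± 1.69 (edgeR adjusted p = 0.218), although its mean over the 4 subset libraries, 23.9 CPM, exceeded the resident mean of 11.5 CPM. Without Siglec-Fint/CD101- replicate 1 the subset mean was 6.62 CPM. That fitted value averages logs over a group at 0; with the 4 subset libraries as 1 group the log2 fold change was 1.15. None of the 10 passed, beside 0.0254% of all genes, and for none were all 4 subset libraries on 1 side of the resident ones, as they were below for 12% and above for 0.702% of all genes. The subset libraries also held more mitochondrial counts (69.9% to 83.9%, against 38.6% to 61.8% in resident libraries) and more T and NK cell marker counts (10 of 10 markers with a count, Klrb1c at 0 in both subsets), at 60.4 to 173 CPM against 20.7 to 32.4 CPM. B and plasma cell markers (8 of 8 with a count, Pax5 at 0 in Siglec-Fint/CD101-) summed to 193 to 324 CPM in SiglecFhi/CD101+ and 165 to 363 CPM in Siglec-Fint/CD101-, against 38.2 to 154 CPM in resident libraries. Neutrophil markers (10 of 10 with a count; Ly6g, Ngp and Camp at 0 in SiglecFhi/CD101+, Mmp8, Camp and Cxcr2 at 0 in Siglec-Fint/CD101-, Ly6g at 0 in resident) summed to 304 to 1098 CPM in SiglecFhi/CD101+ and 593 to 1532 CPM in Siglec-Fint/CD101-, against 136 to 494 CPM in resident libraries. The part of any of these in the values was not tested. On library totals alone, without normalization factors, Atf3 (-1.83, edgeR adjusted p = 0.0394) and Junb (-1.61, edgeR adjusted p = 0.0473) passed, where 6.41% of all genes were called lower and the median of all genes was -2.09.

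**Figure D2:**
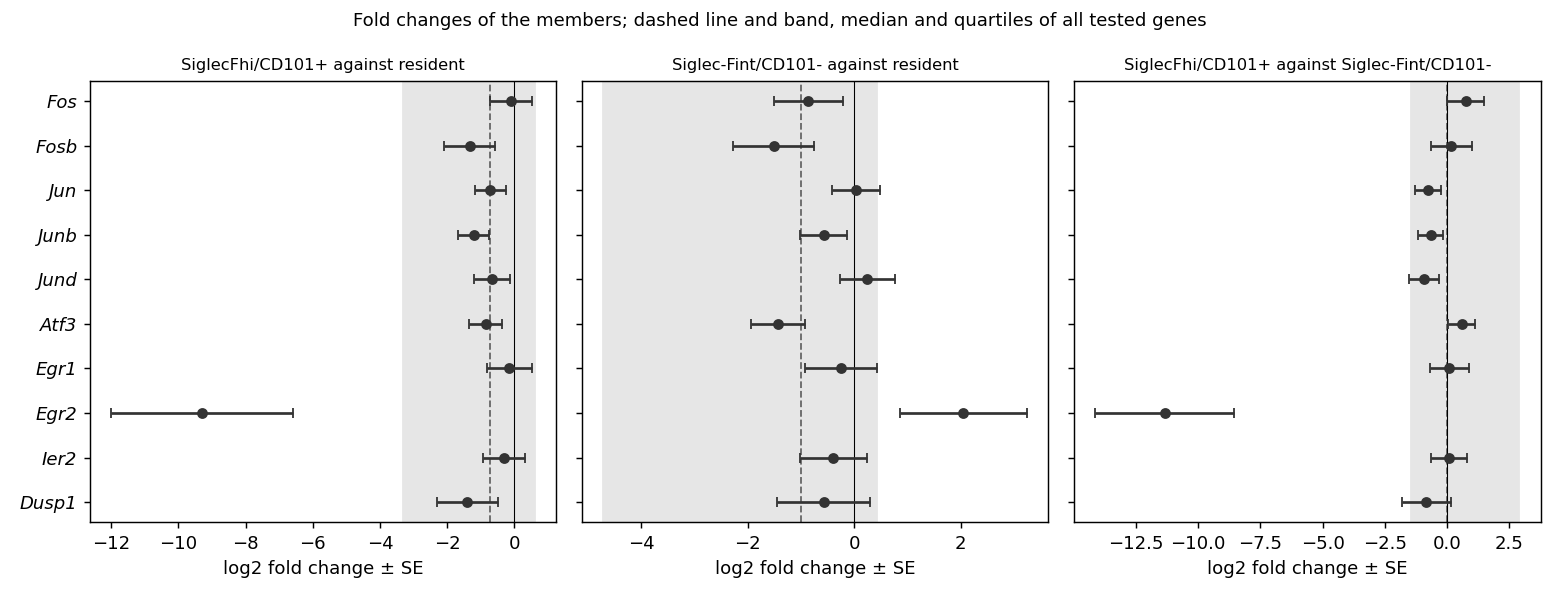
Log2 fold change of each of the 10 genes (x axes, dots) with its standard error (bars) in 3 comparisons, from edgeR fits on all 8 libraries; the dashed line and grey band are the median and quartiles of 11828 genes, and the x ranges differ between panels. Apart from Egr2 at -9.29 and -11.35, which are set against a group without counts and are no bound, the values lie between -1.51 and 2.05.

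**Figure D3:**
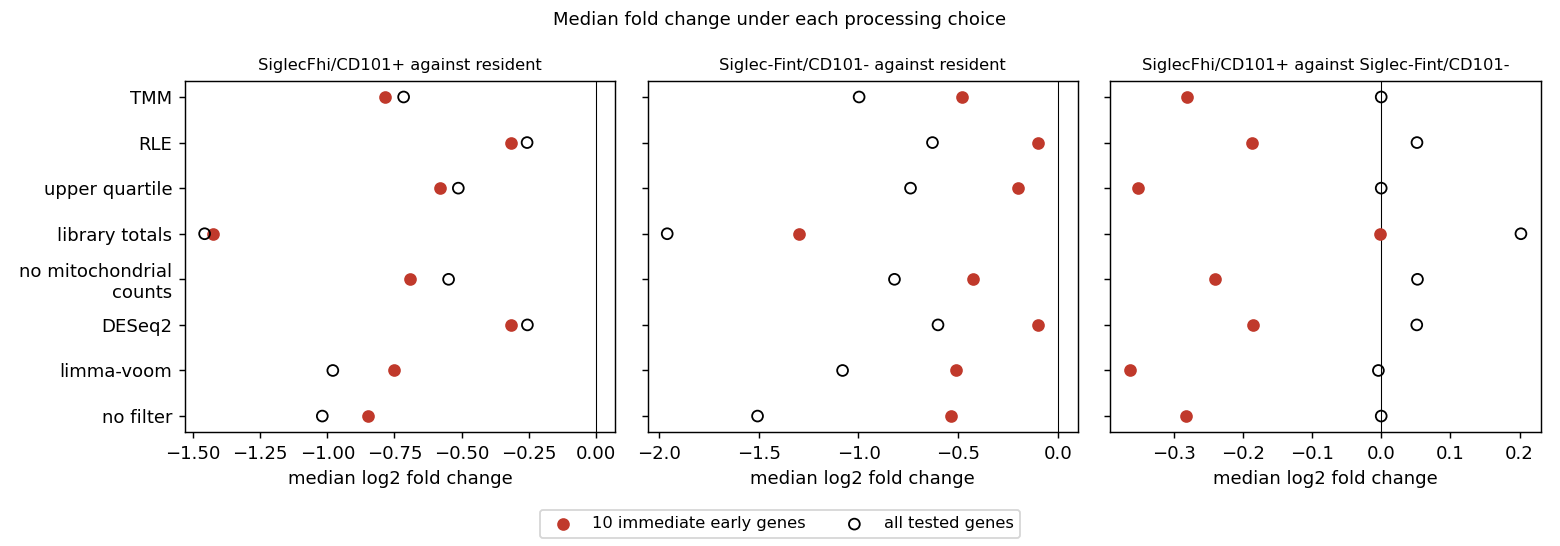
Median log2 fold change (x axes) of the 10 genes (filled dots) and of all tested genes (open dots) under 8 processing choices, in 3 comparisons. In SiglecFhi/CD101+ against resident both medians shift together, from -1.43 and -1.46 on library totals to -0.31 and -0.26 with RLE factors.

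Group means placed resident libraries highest for 7 genes (Fos, Fosb, Junb, Atf3, Egr1, Ier2, Dusp1) and Siglec-Fint/CD101- libraries highest for 3 (Jun, Jund, Egr2). The lowest mean was in SiglecFhi/CD101+ for Jun, Junb, Jund, Egr2 and Dusp1, and in Siglec-Fint/CD101- for the other 5. For none of the 10 was the highest group clear of the middle one in every library, and the middle one was clear of the lowest for Jun, Junb, Atf3 and Egr2. Scaled instead as CPM over counts outside the mitochondrial genome, Fos, Egr1 and Ier2 were highest in SiglecFhi/CD101+ libraries, and Egr2 in Siglec-Fint/CD101- libraries was clear of all resident libraries. On that scale Junb averaged 684 ± 43.1 in SiglecFhi/CD101+, 959.8 ± 79.0 for Siglec-Fint/CD101-, against 1241 ± 358 for resident libraries (SD; n = 2, 2 and 4). Together the 10 genes made up 0.428% ± 0.0918 of those counts in SiglecFhi/CD101+, 0.482% ± 0.0962 for Siglec-Fint/CD101-, against 0.579% ± 0.124 for resident libraries (SD; n = 2, 2 and 4), and the 3 ranges overlapped.

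Ratios of counts within a library do not depend on its scaling; the 4 pairs given were chosen after the values were seen, so they carry no test. Egr2 counts per Egr1 count were 0 in both SiglecFhi/CD101+ libraries, with upper 95% limits (exact Clopper-Pearson) of 0.0251 and 0.0145, and 0.426 and 0.451 in Siglec-Fint/CD101- libraries. In resident libraries they were 0.0777, 0.0585, 0.0242 and 0.301. The Siglec-Fint/CD101- libraries, which differed widely in both genes, thus agreed in their ratio, and resident library 6 stood above the other 3. Fosb per Fos was 0.175 and 1.90 in SiglecFhi/CD101+, 1.44 and 0.611 in Siglec-Fint/CD101-, against 1.30, 2.30, 1.38 and 1.47 in resident libraries. Jund per Junb was 0.729 and 1.27 in SiglecFhi/CD101+, 1.86 and 0.566 in Siglec-Fint/CD101-, against 0.513 to 0.832 in resident libraries, so that the subset libraries spread further than the resident ones. Dusp1 per Junb was 0.0222 in SiglecFhi/CD101+ replicate 1 and 0.346 in replicate 2, 0.182 and 0.237 in Siglec-Fint/CD101-, against 0.174 to 0.276 in resident libraries. These intervals cover counting error only and treat counts as independent. Amplified copies of a molecule are not independent counts, so where copies were counted the intervals are too narrow.

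**Figure D4:**
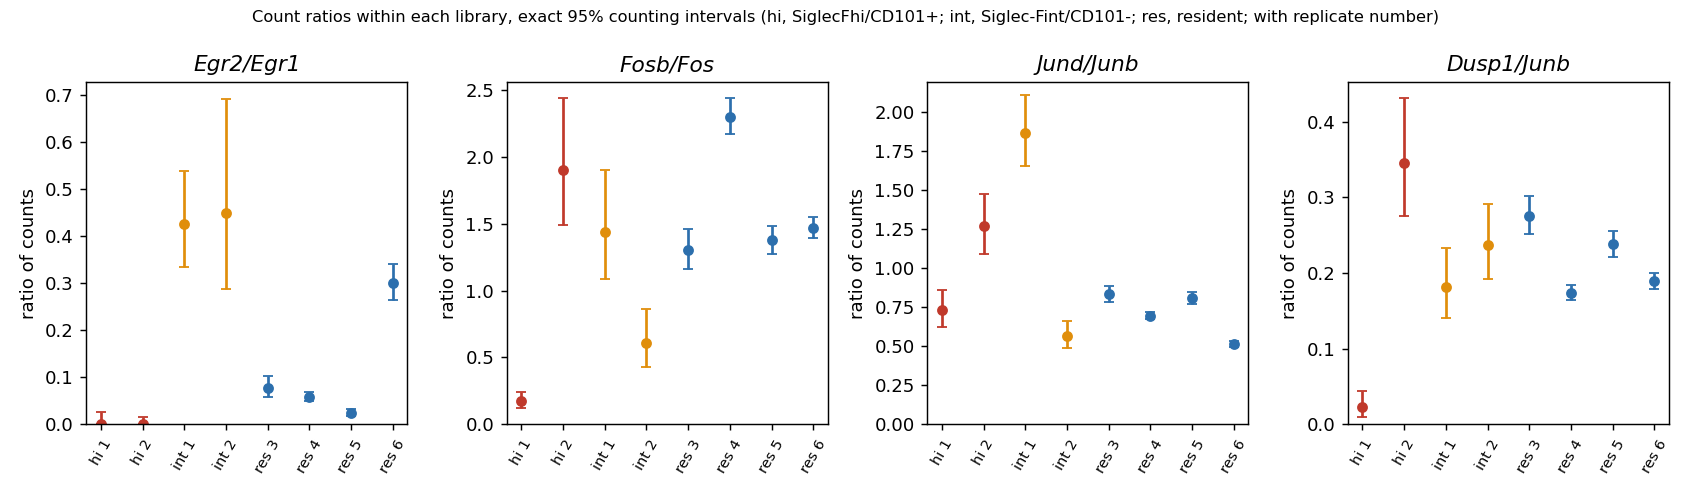
Ratio of the counts of 2 genes in each library (y axes, linear from 0) with exact 95% counting intervals, for SiglecFhi/CD101+ replicates 1 and 2, Siglec-Fint/CD101- replicates 1 and 2 and resident replicates 3 to 6. Egr2 per Egr1 is 0 in both SiglecFhi/CD101+ libraries and 0.426 and 0.451 in Siglec-Fint/CD101- libraries, while the other 3 ratios differ within a subset.

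Lists of AP-1 partners, EGR relatives and corepressors, MAP kinase components and phosphatases were read for genes around this set. Further lists held SRF with cofactors and ETS factors, other early genes, target genes and heat shock genes. No listed gene passed the threshold in any comparison, and the counts that follow are at an unadjusted p under 0.05. In SiglecFhi/CD101+ against resident, 11 of 32 other early response genes were lower and 0 higher, beside 13.1% of all genes lower and 3.65% higher. Among them Nr4a2, an orphan nuclear receptor, had 8 and 0 counts against 430 to 1218 in resident libraries (log2 fold change -5.10 ± 1.52, edgeR adjusted p = 0.175). Klf10, a zinc finger repressor, had no count in either SiglecFhi/CD101+ library and 143 to 255 in each resident one. Cdkn1a, the cell cycle inhibitor p21, was at -1.18 ± 0.39 and Mcl1, a survival factor of the BCL2 family, at -2.19 ± 0.73. The list's median was -1.09, beside -0.72 over all genes.

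Listed AP-1 and EGR target genes were lower in 7 of 20 cases in SiglecFhi/CD101+ against resident, with a median of -1.38, and the counts here stand beside the same 13.1% of all genes. Il1b, which encodes interleukin-1 beta, had 41.4 and 143 CPM in SiglecFhi/CD101+ libraries, against 256 to 598 CPM in resident ones (log2 fold change -2.15 ± 0.58, edgeR adjusted p = 0.146). Il6, the interleukin-6 gene, had 1 count in each SiglecFhi/CD101+ library, against 133 to 1332 in resident libraries. Ccl2, a monocyte-attracting chemokine, had 0 and 2 counts, against 411 to 782 in resident libraries, and Tnf was at -2.62 ± 0.98 (edgeR adjusted p = 0.234). Heat shock genes were lower in 2 of 15 cases, Hspa1b at -1.88 ± 0.49 and Hspa1a at -1.82 ± 0.55, which encode near-identical inducible HSP70 proteins and may share reads. Of 19 AP-1 and related zipper partners 2 were lower: Batf, a Jun partner of lymphoid and myeloid cells, had no count in SiglecFhi/CD101+ libraries, against 126 to 366 in resident ones, and Maff was at -2.92 ± 1.19. MAP kinase components were lower in 2 of 25 cases, phosphatases and feedback inhibitors in 3 of 16 and SRF and ETS factors in 0 of 6. EGR relatives and corepressors were lower in 1 of 3 cases (Nab2, an EGR corepressor, at 1 count in all).

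In Siglec-Fint/CD101- against resident, the lists gave 3 of 25 MAP kinase components lower, a share below the 13.8% of all genes lower at that level, beside which the counts that follow also stand. Of all genes tested, 23.1% had no count in both Siglec-Fint/CD101- libraries. Map3k1, a kinase upstream of JNK, had no count in the Siglec-Fint/CD101- libraries, against 319 to 565 in resident libraries, and Map3k3 had 6 and 1, against 621 to 1170 (edgeR adjusted p = 0.162 for both). All 3 EGR relatives tested were lower: Egr3 and Nab2 had no count in Siglec-Fint/CD101- libraries, and Nab1 had 0 and 8, against 116 to 530 in resident libraries. Other early genes were lower in 5 of 32 cases, among them the nuclear receptors Nr4a1 (-2.02 ± 0.66) and Nr4a3 (-2.41 ± 0.79) and Trib1, a regulator of C/EBP factors (-2.37 ± 0.86). AP-1 partners were lower in 4 of 19 cases and phosphatases in 4 of 16, heat shock genes in 3 of 15 and SRF and ETS factors in 0 of 6. Of 20 target genes 2 were lower and 2 higher, where 1.9% of all genes were higher, the higher ones being Timp1, a metalloproteinase inhibitor with 66 counts in Siglec-Fint/CD101- libraries, against 3 in the resident ones, and Thbs1.

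Between the subsets, 7.96% of all genes were lower and 9.98% higher at an unadjusted p under 0.05, and the counts of listed genes stand beside these shares. Map3k1 had 211 and 39 counts in SiglecFhi/CD101+ libraries and none in Siglec-Fint/CD101- libraries (edgeR adjusted p = 0.106). Map3k3 had 154 and 181 counts in SiglecFhi/CD101+ libraries, against 6 and 1 in Siglec-Fint/CD101- libraries (log2 fold change 5.28 ± 1.11, edgeR adjusted p = 0.152). Map2k1, which activates ERK kinases, had 7 and 1 counts in SiglecFhi/CD101+ and 166 and 0 in Siglec-Fint/CD101- libraries, the last pair resting on 1 library. Target genes were lower in 6 of 20 cases, with Il6 at -6.16 ± 1.77 (edgeR adjusted p = 0.22) and Ccl4 at -1.89 ± 0.69. Other early genes were higher in 3 of 32 cases (Trib1, Rhob and Nr4a1) and lower in 1 (Nr4a2). EGR relatives and corepressors were higher in 1 of 3 cases and lower in 0. That case was Egr3, with 12 and 1 counts in SiglecFhi/CD101+ and none in Siglec-Fint/CD101- libraries (edgeR adjusted p = 0.276), the opposite direction to Egr2. Ets2, an ETS factor that acts with AP-1, had 128 and 119.5 CPM in SiglecFhi/CD101+, against 29.8 and 36.0 CPM in Siglec-Fint/CD101- libraries (edgeR adjusted p = 0.256). It was the 1 higher case of 6 SRF and ETS factors. AP-1 partners were lower in 2 of 19 cases, Batf and Nfil3, with 0 higher, and heat shock genes in 0 of 15 in either direction.

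How far the 10 genes moved together was described by Pearson's r between each one and the mean of the other 9, on standardised log2 CPM over the 8 libraries. It was 0.87 for Fosb, 0.86 for Junb and 0.69 for Jund, and lowest for Fos at 0.22. Among 5734 genes of at least median level, those most like the mean of all 10 included Rps9 (r = 0.99), St3gal1 (0.97), Vim (0.97) and S100a4 (0.97), which encode a ribosomal protein, a sialyltransferase, vimentin and a calcium-binding protein. All 8 libraries share their depth and mitochondrial share with group, and these values describe the libraries without a test. Dusp1 overlaps Ergic1, Jun overlaps Junos and Junb overlaps Prdx2 on the opposite strand, with 670, 430 and 996 counts of those partners in all libraries, and the strand setting of the counting is not given in the sources used here.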

How the data were processed

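For each of 8 libraries the authors deposited raw counts by Ensembl identifier, with unequal totals and no normalization. TopHat2 2.1.0, Bowtie2 2.2.6 and HTSeq 0.6.1 appear in the submitters' processing notes, beside cutadapt 1.10, Trim Galore, FastQC 0.11.5 and DESeq2 1.28.0. The build, the strand setting and any collapsing of molecular identifiers were not given in the sources used, and amplified copies may add to the spread. Groups came from the sample titles alone, not from the letters that head the deposited tables.

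Symbols and gene positions came from the GENCODE M21 annotation of GRCm38, which matched 54409 of 54446 identifiers. Counts were fitted in R 4.3.3 with edgeR 4.0.16: TMM factors, filterByExpr (11828 genes kept), 1 robust quasi-likelihood fit with 3 group means over all 8 libraries, two-sided tests, and Benjamini-Hochberg adjustment over all genes kept. edgeR estimated a biological coefficient of variation, common to all genes, of 1.12. CPM values use TMM-scaled library sizes, and SDs are over libraries. Each SE of an edgeR fold change was derived from the test, as the absolute log2 fold change over the square root of its F statistic. It can fail where a group has no count, as for Timp1 in both subsets against resident (3.10 ± 100). Per library, 1993 to 2513 counts in the subsets and 11001 to 35986 in resident libraries fell on the 10 genes.

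All 10 genes are named in every comparison, and from each other list up to 4 genes per comparison with the smallest p; other genes were chosen after their values were seen. The 10 genes, the lists and the comparisons were chosen with earlier results of these data known, and comparisons with resident libraries share those libraries. The fit was also run on simulated counts, with changes set equally in both subsets among genes of at least median level. That run does not show how the fit treats genes at 0 or differences between the subsets. Alternatives were RLE, upper-quartile and no factors, mitochondrial counts left out, DESeq2 1.42.0, limma 3.58.1 voom, a non-robust fit, no filter, 20 counts in 2 libraries, an adjusted p under 0.01, compared groups alone, a replicate block, each library left out, and, chosen after seeing the data, both subsets as 1 group. One gene that the likeness rule named is not reported here.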

Additional observations from a re-analysis of the deposited data

Results flagged for a closer look

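Dusp1 in resident replicate 5, at 64.1 CPM, lay further from the other 3 resident libraries (101 to 106 CPM) than Dixon's 95% critical value for 4 values allows, with a ratio of gap to range of 0.891. Chance flags about 1 in 20 such groups, and 10 genes were looked at in the resident group. The subsets, with 2 libraries each, could not be examined this way.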

How the results depend on the processing

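None of the 10 genes was called under any alternative run except with DESeq2, which called 1 in SiglecFhi/CD101+ against resident and 1 against Siglec-Fint/CD101- (Egr2 in both), and with no normalization factors, which called 2 in both subsets against resident (Junb and Atf3). Of 770 fold changes recomputed, 716 kept their sign and side of the threshold, 50 changed sign and 4 newly passed; the cause was not tested. The median log2 fold change of all genes shifted with the scaling. Over RLE, upper-quartile and no factors, the mitochondrial genome left out, and DESeq2, it was -1.46 to -0.25 in SiglecFhi/CD101+ against resident, -1.96 to -0.60 in Siglec-Fint/CD101- against resident, 0.00 to 0.20 between the subsets and -2.09 to -0.66 in both subsets against resident.

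Sign changes were as follows, on the log2 scale. In SiglecFhi/CD101+ against resident, Fos was at 0.35 with RLE factors and with DESeq2 and at 0.070 with upper-quartile factors, Egr1 at 0.32, 0.32 and 0.071, and Ier2 at 0.17 with RLE factors and with DESeq2. In Siglec-Fint/CD101- against resident, Egr1 was at 0.13 with RLE factors and with DESeq2 and at 0.068 with upper-quartile factors, Jun at -0.90 and Jund at -0.40 with no factors, and Jun at -0.016 with no filter. Between the subsets, Fosb was at -0.078 with limma-voom. In both subsets against resident, RLE factors and DESeq2 put Jun at 0.082, Jund at 0.21, Egr1 at 0.22 and Ier2 at 0.076 and 0.075, and upper-quartile factors put Jund at 0.052 and Egr1 at 0.069. With both subsets as 1 group, chosen after seeing the data, Jund was at 0.00062 and Egr2 at 1.15.

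With each library left out in turn, SiglecFhi/CD101+ against resident ranged from -0.89 to 0.25 for Fos and -0.83 to 0.31 for Egr1. Siglec-Fint/CD101- against resident ranged from -0.12 to 0.17 for Jun, -0.90 to 0.85 for Jund, -1.63 to 0.42 for Egr1 and -1.26 to 0.11 for Ier2. Between the subsets the ranges were -3.96 to 0.030 for Dusp1, -1.45 to 1.03 for Fosb, -0.67 to 1.37 for Egr1, -0.51 to 0.85 for Ier2 and -1.62 to 0.12 for Jund. Both subsets against resident ranged from -0.84 to 0.049 for Jund and -0.94 to 0.21 for Egr1. A library left alone in its group is assumed to vary like the other groups.

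The number of genes called over the whole table moved as follows. SiglecFhi/CD101+ against resident gave 7 with no factors, 940 with DESeq2, 370 with no filter, 1 on the compared groups alone, and 1 to 133 with a library left out (131 and 133 without Siglec-Fint/CD101- replicates 1 and 2). Siglec-Fint/CD101- against resident gave 3 with no factors, 737 with DESeq2, 2 with limma-voom, 136 with no filter, 1 each with a non-robust fit, 20 counts in 2 libraries or an adjusted p under 0.01, 0 on the compared groups alone, and 0 to 9 with a library left out. Between the subsets there were 1309 with DESeq2, 0 with limma-voom, 85 with no filter, 0 on the compared groups alone, and 0 to 2 with a library left out. Both subsets against resident gave 8 with RLE, 5 with upper-quartile and 773 with no factors, 1039 with DESeq2, 5 with limma-voom, 201 with no filter, and 2 to 6 with a library left out.

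Both subsets number their libraries 1 and 2, but same-numbered libraries did not deviate together (r = 0.0066 over 11828 genes), and with 2 pairs the samples share only a number. A replicate block on the subsets alone called 4 genes, against 0 without the block, and 0 of the 10. Depth limits the subsets most: genes under 1.59 to 2.18 CPM there are below 3 counts.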
